A study of Canis lupus familiaris with 77 samples.

Results

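miR-132 and miR-212 are 2 of the 650 miRNAs with reads in the dog miR-seq atlas. Their rows were picked out by name, as those listed for dog (prefix cfa) as cfa-miR-132 and cfa-miR-212. The atlas covers 16 tissues in 76 libraries. The donors were 5 male beagle dogs, 10 months old per the methods, and were perfused with phosphate buffered saline before the organs were taken. Of these tissues 14 had 5 samples, colon had 4 and sciatic nerve had 2. The 16 groups were brain, sciatic nerve, testis, thymus, bone marrow, plasma, duodenum, jejunum, ileum, colon, pancreas, liver, kidney, lung, heart and skeletal muscle. The labels and the methods name no treatment and no engineered allele for any group. The labels give no brain region and no dog number, so tissues of the same dog entered every test as separate samples, and the p-values do not account for shared animals. Replicate numbers below only name samples in deposit order.

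A miRNA is a short RNA cut from a hairpin precursor, and each of the arms of the hairpin can yield a mature strand that lowers the output of target mRNAs. In rodents and humans miR-132 and miR-212 lie next to each other in one transcript. That transcript is switched on by the transcription factor CREB when neurons are active or receive neurotrophins such as BDNF. In neurons the pair is known for effects on dendrite growth, spine shape and plasticity. Roles in immune, vascular and endocrine cells have also been described.

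In the dog gene table used here, of another assembly than the one the reads were aligned to, MIR132 and MIR212 were direct neighbours, with DPH1 and then MIR132, MIR212, HIC1 and SMG6 in that order. The names in the deposited table pair cfa-miR-132 with the human 3p arm and cfa-miR-212 with the human 5p arm. The members are therefore strands from opposite arms of their hairpins. The other arms are listed under human names as hsa-miR-132-5p and hsa-miR-212-3p, and are described here only beside the members.

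Library depth ran from 157871 to 7896424 reads on miRNAs, with a median of 1364820, and from 785857 to 3217077 in brain. A count of 3 reads, taken here as the limit that a count of 0 allows, was worth 0.380 to 19.0 RPM, depending on the library, where RPM are reads scaled to a library of 1000000 miRNA reads. These limits cover counting error only. The summed RPM of 14 rows of neuronal miRNAs was 45233 to 97155 in the brain samples and at most 5351 in any other library, a thymus sample. One testis library (replicate 3) stood apart, with a summed level of 587 RPM over 3 rows of testis miRNAs, against 4960 to 98677 RPM in the other testis samples.

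Both members were highest in brain. In the 5 brain samples cfa-miR-132 was at 5926, 5698, 486, 5525 and 2220 RPM, with a median of 5525 RPM. The 71 samples of the other 15 tissues lay between 0 and 130 RPM, with a median of 35.7 RPM, and the highest of them was an ileum sample. The lowest brain sample was thus 3.75 times the highest sample from elsewhere, and the groups did not overlap. The share of all miRNAs that separate brain in this way is not given here, so the separation of either member is a description only. Brain libraries held 88.2% of all cfa-miR-132 reads of the atlas and 7.76% of all miRNA reads. In whole tissue, fewer cells of a type and less RNA per cell cannot be told apart.

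In the same 5 brain samples cfa-miR-212 was at 672, 511, 38.3, 857 and 398 RPM, with a median of 511 RPM. Outside brain its highest level was 13.9 RPM, in a testis sample with 4 reads, and its median over the 71 samples was 1.40 RPM. The lowest brain sample was 2.75 times that highest sample, and again the groups did not overlap. By brain median, cfa-miR-132 ranked 30 and cfa-miR-212 ranked 100 among 485 miRNAs with a brain median above 0.

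**Figure D1:**
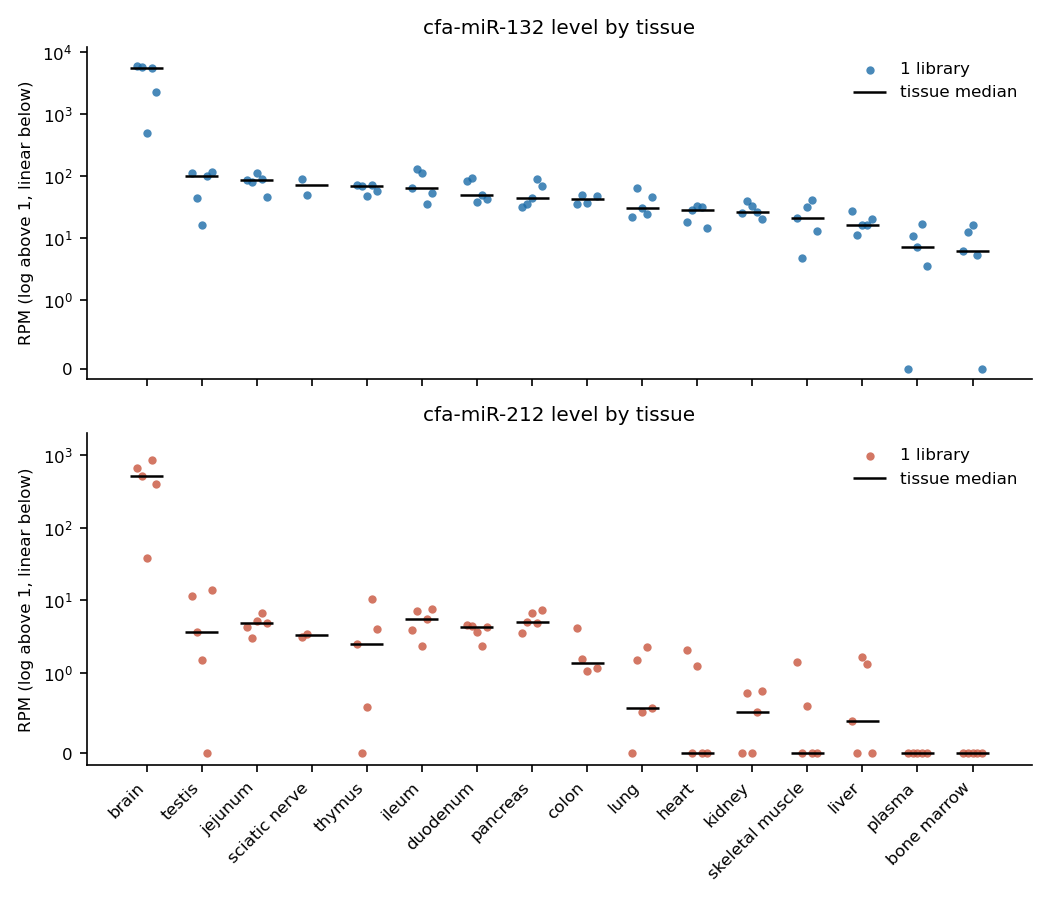
RPM of cfa-miR-132 (top) and cfa-miR-212 (bottom) in each of the 76 libraries, by tissue. Points are single libraries, bars are tissue medians, and the axis is logarithmic above 1 RPM and linear below. Every brain sample lies above every sample of the other 15 tissues, whose highest values are 130 RPM and 13.9 RPM.

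The mean brain level of cfa-miR-132 was 3971 ± 2471 RPM (SD, n = 5), 90.3 times the mean of all other samples (43.99 RPM). This difference passed the two-sided exact rank-sum test, adjusted over the miRNAs detected in brain (adjusted p = 6.1e-07). That test uses ranks only. Without overlap its p-value is the smallest it can give, for either member, and does not measure the size of a difference. For cfa-miR-212 the mean was 495 ± 309 RPM (SD, n = 5), 202 times the mean of all other samples (2.45 RPM), with an adjusted p of 4.8e-07 in the same exact test. The paper states that its quantitative PCR did not separate tissues by miR-212, so this difference rests on sequencing alone. By the rule of a fold above 5, an adjusted p under 0.05 and a tissue median above 100 RPM, both were enriched in brain. That rule called 77 of 551 miRNAs in brain, which is 14%. No other tissue met it for either member, and in those 15 tissues it called at most 3.98% of detected miRNAs.

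The stricter measure of enrichment divides the tissue median by the highest level in any sample of another tissue. It was 42.6 for cfa-miR-132 and 36.7 for cfa-miR-212, and 30 of the 77 miRNAs had a value above 5. The members ranked 5 and 7 among the 77 by this measure, and 18 and 9 by the fold of means. With library sizes scaled by TMM (trimmed mean of M values) in place of the deposited totals, the fold of means was 39.5 for cfa-miR-132 and 90.5 for cfa-miR-212, and both remained called. The median-over-maximum ratio was then 16.7 for cfa-miR-132 and 28.0 for cfa-miR-212, so the order of the members reversed.

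A negative binomial model of the counts (edgeR quasi-likelihood test, adjusted by Benjamini-Hochberg) gave for cfa-miR-132 a log2 fold change of 5.55 (SE 0.21, adjusted p = 2.7e-35) for brain against the mean of the other 15 tissues. In this comparison 45.2% of 480 tested miRNAs were called higher in brain, 217 in all against 135 lower, and with the deposited totals the split was 270 to 65. The median log2 fold change of all tested miRNAs was 0.13 with TMM scaling and 1.22 with the deposited totals, and that of cfa-miR-132 lay 5.43 and 5.57 above those medians. For cfa-miR-212 the fitted mean of the other tissues is not well defined, because bone marrow and plasma had no read of it. Without these tissues its log2 fold change in edgeR was 6.47 (SE 0.28, adjusted p = 3.6e-29) against the mean of the remaining 13, where 43.7% of 471 miRNAs were called higher. The same fit gave 5.15 (SE 0.20) for cfa-miR-132.

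Brain was also set against each of the other 15 tissues in turn. Both members were higher in brain in all 15 edgeR comparisons, with a largest adjusted p of 5.0e-08 for cfa-miR-132 and 3.7e-07 for cfa-miR-212, each against the 2 sciatic nerve samples. Over all tested miRNAs the share called higher in brain was 27.1% against sciatic nerve, 35.4% against thymus, 36% against testis, 37.1% against duodenum and kidney, 38.5% against lung, 40% against colon and skeletal muscle, 40.2% against ileum, 40.6% against jejunum, 41% against liver, 42.7% against heart, 44.6% against plasma and 44.8% against pancreas and bone marrow. For cfa-miR-132 the ratio of mean RPM ran from 48.2 over jejunum and 50.4 over ileum to 219 over liver and 522 over plasma. Bone marrow, with at most 3 reads per library, allowed only a bound of at least 258-fold.

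For cfa-miR-212 the ratio of mean RPM ran from 81.5 over testis and 90.3 over pancreas to 1215 over kidney, where the 5 libraries held 12 reads in all. The 5 testis libraries held 11 reads in all, and without the library that stood apart the ratio over testis was 68.6. In 5 tissues no library had more than 3 reads of it, so the folds are lower bounds set by 3 reads per library. Brain was at least 200-fold higher than lung, 183-fold than liver, 132-fold than plasma, 72.8-fold than skeletal muscle and 32.2-fold than bone marrow. The bone marrow bound was low because 3 reads were worth 12.6 to 18.5 RPM in its libraries. A low level of cfa-miR-212 in bone marrow was therefore not detectable in single libraries. Together the 5 libraries held 992876 reads, with 0 of cfa-miR-212, so a limit on the pooled reads would be lower.

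**Figure D2:**
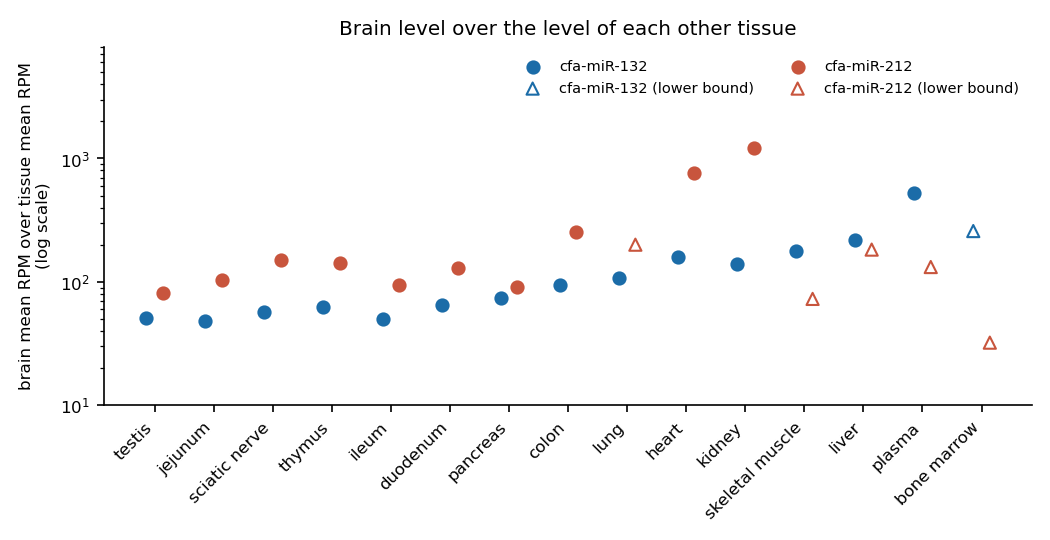
Ratio of the mean brain RPM to the mean RPM of each other tissue, on a log axis, for cfa-miR-132 (blue) and cfa-miR-212 (red). Open triangles are lower bounds for tissues with at most 3 reads in every library, and the filled points run from 48.2 to 522 for cfa-miR-132 and from 81.5 to 1215 for cfa-miR-212.

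Among the 5 brain samples the levels were uneven. Replicates 1, 2 and 4 were close to each other for cfa-miR-132 (5525 to 5926 RPM), replicate 5 was lower and replicate 3 was far lower. Against the median of the other 4 samples, replicate 3 was 11.5 times lower for cfa-miR-132 and 15.4 times lower for cfa-miR-212. The other arms were 9.21 times (hsa-miR-132-5p) and 10.1 times (hsa-miR-212-3p) lower in it. The coefficient of variation was 62.2% and 62.3% for the members, against a median of 42.8% over the 172 miRNAs with a brain median above 100 RPM.

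This sample was not short of reads, with 2036178 on miRNAs and 990 and 78 on the members. Of the 172 miRNAs, 21 (12.2%) were over 5 times lower in it than the median of the others, and all 4 arms were among these 21. The same count was 0 to 2 for each of the other brain samples. Not every brain miRNA was low in it. cfa-miR-124, a neuronal miRNA, was at 4442 RPM there and 2067 to 4574 RPM in the others, and cfa-miR-9, common in neural cells, was at 40348 RPM there and 21762 to 38323 RPM in the others.

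cfa-miR-137, a neuronal miRNA with roles in synapse function, was the lowest of the 172 relative to the other samples, at 0.982 RPM in replicate 3 and 34.7 to 238 RPM in the others. cfa-miR-138a, which acts on dendritic spines, was at 1206 RPM against 3283 to 9317 RPM. In the same sample the summed level of 11 rows of epithelial miRNAs was 23997 RPM, against 2831 to 4798 RPM in the other brain samples. This sum was nearly all cfa-miR-192 (23546 RPM against 2518 to 3151 RPM), and cfa-miR-194 was at 430 RPM against 44.7 to 87.04 RPM, while hsa-miR-200a-3p (1.47 RPM) and hsa-miR-200b-3p (2.46 RPM), which mark epithelium, were lower than in each of the others. Among 4 rows of red cell miRNAs, cfa-miR-486 was at 42204 RPM there, against 10850 to 29004 RPM, but cfa-miR-451 was at 422 RPM, within the range of the others (159 to 2161 RPM). Among the 3 rows of testis miRNAs, cfa-miR-34c was at 1939 RPM, against 21.01 to 161 RPM, while cfa-miR-202 had no read there. The summed level of these 3 rows was 1969 RPM, above the 587 RPM of the testis library that stood apart. Among 7 rows of pancreas miRNAs, cfa-miR-216a (7.86 RPM) and cfa-miR-216b (11.3 RPM) exceeded the other brain samples (at most 0.933 and 2.54 RPM). cfa-miR-375 (40.3 RPM) and the sum of the 7 rows (64.8 RPM) lay within the range of those samples. Among 10 rows of muscle miRNAs cfa-miR-206 was at 9.33 RPM, against at most 1.30 RPM, while their sum (145 RPM) lay within the range. The part of these differences in the low member levels was not tested.

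Replicate 5 was the next lowest, at 0.396 (cfa-miR-132) and 0.672 (cfa-miR-212) of the median of the other 4. Over the 172 miRNAs with a brain median above 100 RPM the median of this ratio was 0.604. The cfa-miR-212 level was thus not low for that library, and cfa-miR-132 lay below its median ratio. Replicate 5 also had the lowest summed neuronal level (45233 RPM). Its summed level of 6 rows of oligodendrocyte and Schwann cell miRNAs was the highest, at 3047 RPM against 965 to 2024 RPM. The part of these levels in the member levels was not tested. Without replicate 3 the brain mean was 4842 ± 1756 RPM (SD, n = 4) for cfa-miR-132 and 609 ± 200 RPM (SD, n = 4) for cfa-miR-212, and the lowest brain sample was then 2220 and 398 RPM.

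**Figure D3:**
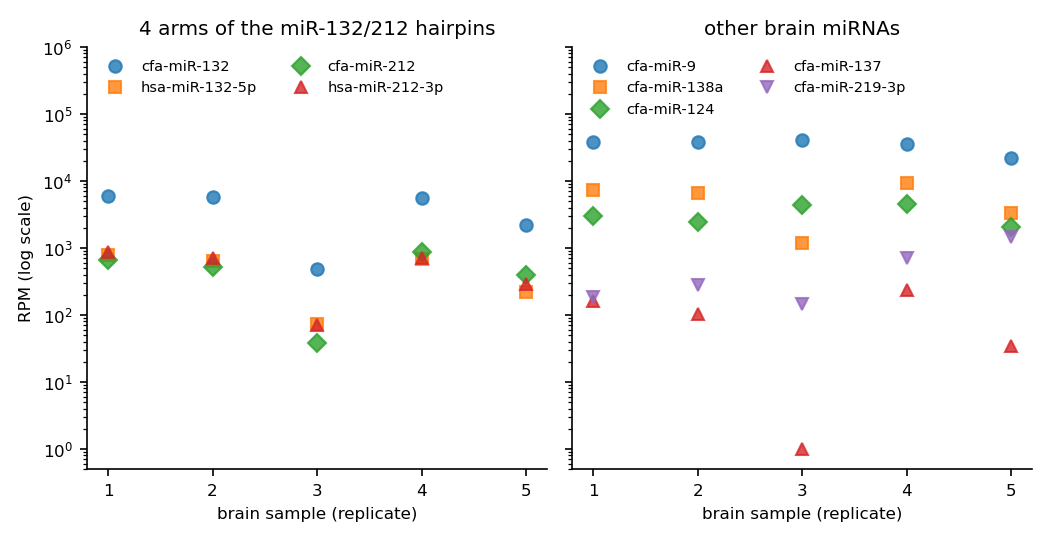
RPM on a log axis in each of the 5 brain samples for the 4 arms of the miR-132 and miR-212 hairpins (left) and for 5 other brain miRNAs (right). Replicate 3 is the lowest for all 4 arms and for cfa-miR-137 (0.982 RPM), while cfa-miR-124 (4442 RPM) and cfa-miR-9 (40348 RPM) are not low in it.

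Outside brain, cfa-miR-132 was low but present in most tissues. It had more than 3 reads in 64 of 71 libraries, and 2 libraries, 1 of plasma and 1 of bone marrow, had no read. By median the order after brain was testis (100.2 RPM), jejunum (86.3), sciatic nerve (70.2), thymus (69.7), ileum (62.6), duodenum (48.2), pancreas (44.1) and colon (41.7). Below these came lung (29.8), heart (28.5), kidney (25.7), skeletal muscle (21.1), liver (16.3), plasma (7.21) and bone marrow (6.16 RPM). Of the 15 pairs of neighbours in this order, 14 had overlapping ranges, and brain over testis was the exception.

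The testis samples were uneven. They were at 113, 43.8, 16.3, 100.2 and 115 RPM, and the lowest was the library that stood apart. The testis mean was 77.6 ± 44.9 RPM (SD, n = 5), and 93.0 ± 33.5 RPM (SD, n = 4) without that library, against which the brain mean was 42.7 times higher (51.1 times with it). Ileum samples were at 62.6, 130, 113, 35.7 and 53.2 RPM.

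In edgeR against the mean of the other 15 tissues, brain included, 4 tissues besides brain were called for cfa-miR-132 under each of 3 scalings (TMM, RLE and the deposited totals). Jejunum, at 86.3, 80.3, 110, 89.5 and 45.8 RPM, was higher (log2 fold change 0.87, SE 0.28, adjusted p = 0.0086). In jejunum 27.3% of miRNAs were called higher. That call was lost without bone marrow and plasma (0.54, SE 0.27, adjusted p = 0.10).

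The other 3 tissues were lower for cfa-miR-132. Bone marrow was lower (adjusted p = 1.0e-07), but with 8 reads over its 5 libraries, none above 3, no fitted size is given. Its mean was 8.04 RPM against 7.61 RPM in plasma, and 24.6% of miRNAs were called lower there. Plasma, at 0, 10.8, 7.21, 16.6 and 3.46 RPM, was lower (log2 fold change -2.03, SE 0.39, adjusted p = 5.2e-06), with 24.8% called lower. Red cell miRNAs held most of the plasma reads, as given above. The paper reports low RNA integrity in plasma and bone marrow, the latter with a lower share of mapped reads. The part of these in the low levels was not tested. Liver, at 27.1, 11.2, 16.3, 16.0 and 20.1 RPM, was lower as well (log2 fold change -1.34, SE 0.35, adjusted p = 0.0013), with 12.5% called lower. Heart, lung and skeletal muscle each passed as lower under 1 scaling only. Without bone marrow and plasma, and with TMM scaling, they passed at log2 fold changes of -1.20 (SE 0.32), -0.93 (SE 0.31) and -1.31 (SE 0.34), where 16.6%, 14.4% and 21.4% of miRNAs were called lower.

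cfa-miR-212 outside brain was close to the limit of detection. It had no read in 23 of the 71 libraries and 3 or fewer reads in 47. By median its highest tissues were ileum (5.49 RPM), pancreas (5.04), jejunum (4.82), duodenum (4.21), testis (3.65), sciatic nerve (3.26) and thymus (2.50 RPM). Without the testis library that stood apart, the testis median was 7.48 RPM. It rested on 3, 1, 0 and 4 reads, in libraries where 3 reads were worth 10.4 to 13.7 RPM. The place of testis in this order is therefore not settled. Ileum samples were at 3.92, 7.14, 2.33, 5.49 and 7.60 RPM, from 50 reads in all. Pancreas samples were at 3.58, 5.04, 6.60, 4.80 and 7.41 RPM, from 44 reads, and were the only tissue outside brain with more than 3 reads in all 5 libraries.

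Plasma and bone marrow had no read of cfa-miR-212 in any of 5 libraries each. A count of 0 allowed up to 1.70 to 10.9 RPM in the plasma libraries. Neighbouring tissues in the order overlapped in 14 of 15 pairs, brain over ileum being the exception. In edgeR without bone marrow and plasma, 3 tissues were lower than the mean of the other 13 under each of the 3 scalings. These were liver (adjusted p = 0.00078), kidney (log2 fold change -2.03, SE 0.57, adjusted p = 0.0032) and lung (adjusted p = 0.0095), and no fitted size is given for liver and lung, where no library had more than 3 reads. In liver, kidney and lung 23.4%, 15.3% and 14.4% of miRNAs were called lower.

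Pancreas was higher for cfa-miR-212 with TMM scaling (log2 fold change 1.30, SE 0.41, adjusted p = 0.0079), where 25.1% of miRNAs were called higher in pancreas, but not with the deposited totals (0.82, SE 0.42, adjusted p = 0.12). Heart and skeletal muscle passed under some scalings only.

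The ratio of cfa-miR-132 to cfa-miR-212 reads in the brain samples was 8.82, 11.1, 12.7, 6.45 and 5.58, with a median of 8.82. The ratio between different miRNAs also depends on how well each sequence is captured in the library, which these files do not measure, but the same pair can be followed across libraries. Outside brain 61 libraries had 10 or more reads of the pair. Of these, 19 lay within the brain range and 0 below it. The other 42 were counted as above it, among them 13 without a cfa-miR-212 read, for which no ratio is defined. Some of these 13 had too few reads to be placed, such as a plasma library with 10 cfa-miR-132 reads and a thymus library with 11. Summed over these libraries there were 4961 and 297 reads, a ratio of 16.7, against 37240 and 4431 reads in brain, a ratio of 8.40.

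The ratio in single tissues is uncertain. Pancreas (median 8.75, from 6.69 to 18.4) and testis (median 11.0, with 1 library without a cfa-miR-212 read) lay near the brain samples. In kidney 2 of 5 libraries had no cfa-miR-212 read, and the others lay above the brain samples, at 25.8 or more. Colon (median 33.5, from 8.67 to 40.2) and lung (median 58.0, from 10.5 upwards) spanned both, and the best counted colon library, with 208 and 24 reads, was the one at 8.67. The ratio of summed reads in colon was 15.4. Many of the higher ratios rest on 1 to 5 reads of cfa-miR-212. The ratio is given as a description and was not tested between tissues.

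**Figure D4:**
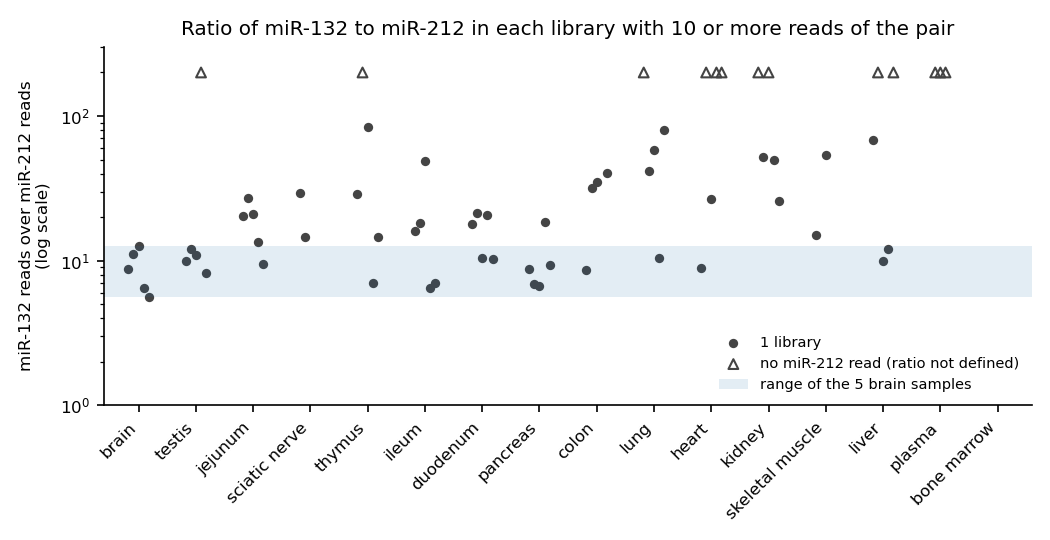
Reads of cfa-miR-132 divided by reads of cfa-miR-212, on a log axis, in each library with 10 or more reads of the pair. The shaded band is the range of the 5 brain samples (5.58 to 12.7), triangles mark the 13 libraries without a cfa-miR-212 read, for which no ratio is defined, and no library of another tissue lies below the band.

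The other arms followed the members in brain. hsa-miR-132-5p was at 785, 645, 72.7, 693 and 223 RPM and hsa-miR-212-3p at 882, 714, 71.2, 718 and 290 RPM in the 5 brain samples. Both were enriched in brain, with folds of 122 and 100.3 over the mean of all other samples (adjusted p = 4.8e-07 each, exact rank-sum test). Neither is a dog-annotated row.

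For the miR-132 hairpin the 3p arm dominated. The ratio of cfa-miR-132 to hsa-miR-132-5p was 6.69 to 9.94 in the brain samples. Outside brain its median was 20 over 61 libraries, of which 9 lay below the brain range and 50 were counted as above it. Among these 50 were 13 without an hsa-miR-132-5p read, for which no ratio is defined. The ratio of summed reads there was 15.6. The arms of the miR-212 hairpin were nearer to each other, with a ratio of cfa-miR-212 (5p) to hsa-miR-212-3p of 0.762, 0.716, 0.538, 1.19 and 1.37 in brain. The 3p arm had more reads in 3 of 5 brain samples and the 5p arm in the other 2. Over 28 libraries of other tissues with 10 or more reads of the miR-212 arms the median ratio was 0.521.

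Of the 4 ratios computed, that of cfa-miR-132 to hsa-miR-212-3p, the 3p arms of both hairpins, varied least between brain samples, at 6.72, 7.98, 6.83, 7.70 and 7.66. In replicate 3, where both levels were far lower, it lay within the range of the others. Outside brain this ratio had a median of 9.79 over 62 libraries.

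Over the 16 tissue means of log2(RPM + 1), and among 265 other miRNAs with a tissue median above 100 RPM, the profiles most like that of cfa-miR-132 were hsa-miR-212-3p (Pearson r = 0.97), cfa-miR-212 (0.96), hsa-miR-132-5p (0.90), cfa-miR-9 (0.90) and cfa-miR-124 (0.88). For cfa-miR-212 they were hsa-miR-212-3p (0.97), cfa-miR-132 (0.96), hsa-miR-132-5p (0.94), cfa-miR-137 (0.93) and cfa-miR-124 (0.92). These correlations rest on brain for a large part. Over the 15 other tissue means r was 0.89 between the members, and for cfa-miR-132 it was 0.91 with hsa-miR-212-3p, 0.74 with cfa-miR-9 and 0.61 with cfa-miR-124. The points share library depth, and the values are given as a description.

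Other miRNAs known from work on synaptic plasticity and neuronal activity were counted for comparison. The list had 16 miRNA names, which matched 34 rows, and 27 rows could be tested in edgeR for brain against the mean of the other 15 tissues. With TMM scaling 24 of these were higher in brain, 2 were lower and 1 did not pass, against 45.2% called higher over all tested miRNAs. The list was chosen with earlier results of these data known, and it holds both arms of some hairpins. Some of its names, such as miR-9, miR-124 and miR-128, are also among the neuronal miRNAs summed above. The count is therefore a description and not a test of the list. The median log2 fold change was 4.63 on the list and 0.13 over all tested miRNAs. Of the 480 tested miRNAs, 183 had a tissue without reads, and 20 of the 34 list rows had no read in bone marrow. For such rows the fitted mean of the other tissues is not well defined, as for cfa-miR-212, which limits the sizes given here and below.

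By brain median the highest rows of the list were cfa-miR-181a (178387 RPM), cfa-miR-191 (40752 RPM), cfa-miR-9 (38121 RPM) and cfa-miR-128 (34047 RPM). cfa-miR-9 and cfa-miR-128 had log2 fold changes of 9.02 (SE 0.26) and 5.42 (SE 0.22), and cfa-miR-181a of 1.82 (SE 0.23). The other 3 tested rows depended on the scaling. cfa-miR-191 did not pass with TMM (-0.30, SE 0.25) and was higher with the deposited totals (0.83). cfa-miR-188 and cfa-miR-34a were lower with TMM, at -1.62 (SE 0.55) and -0.63 (SE 0.28), and did not pass with the deposited totals, at -0.61 and 0.52. With the deposited totals 25 of the 27 rows were higher, against 56.3% of all tested miRNAs. The value of 5.55 for cfa-miR-132 thus lay next to that of cfa-miR-128, below those of cfa-miR-9 and cfa-miR-124 (10.9, SE 0.35). In the low brain sample 3 of the 13 rows of this list with a brain median above 100 RPM were over 5 times lower than in the others, namely cfa-miR-137, cfa-miR-138a and hsa-miR-128-1-5p. Over all miRNAs with such a brain median it was 21 of 172 (12.2%). The median ratio of this sample to the others was 0.709 on the list and 0.666 over the 172.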

How the data were processed

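Small RNA libraries (TruSeq) of 76 tissue samples were used. Per the methods, the authors clipped adaptors, aligned reads to the dog genome CanFam3.1 with OSA without mismatches, and made the deposited read counts over miRNA loci of dog, rat and human annotation. The deposited RPM values are those counts scaled to 1000000 miRNA reads per sample, and recomputed RPM differed from them by a relative 2.89e-09 at most. Rows not listed for a sample were set to 0. One name in the table (1 of 77), that of a sciatic nerve pool, matched no labelled sample and was not used, and 1 labelled colon sample had no values.

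Groups came from the tissue labels. Whether the 2 sciatic nerve samples come from separate dogs is not settled. P-values measure the spread between samples, and tissues of the same dog were not paired, since the labels carry no dog number.

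Rank-sum tests were exact and two-sided (midranks, Benjamini-Hochberg). Counts were fitted with edgeR 4.0.16 (R 4.3.3; filterByExpr, TMM on the deposited totals, quasi-likelihood, 1 term per tissue), with DESeq2 1.42.0, other scalings, filters and left-out samples as alternatives. SEs are the log2 fold change over the root of the F statistic. Genes named were the members, their other arms, the 5 most alike miRNAs and the highest rows of the plasticity list. Others were chosen after their values were seen. These were cfa-miR-34c, cfa-miR-202, the epithelial, red cell, pancreas and muscle rows, cfa-miR-138a, hsa-miR-128-1-5p and the list rows that did not rise. Members and lists were chosen with earlier results of these data known. Neighbouring genes came from a RefSeq table of the assembly UU_Cfam_GSD_1.0. Sequences were not used here.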

Additional observations from a re-analysis of the deposited data

Results flagged for a closer look

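For cfa-miR-212 in colon the highest sample, replicate 1, was at 4.10 RPM from 24 reads, and the next highest of the 4 samples was at 1.52 RPM from 1 read. The gap was 0.845 of the whole range. Dixon's test picked out this value alone among 28 groups of 4 or 5 samples with varying values over both members. Chance picks out about 1 in 20 groups. The low brain replicate 3 did not pass this test for either member.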

How the results depend on the processing

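The members kept their direction and their call in brain under every alternative run. Left-out brain samples gave folds of means of 79.2 to 110 (cfa-miR-132) and 165 to 248 (cfa-miR-212), edgeR log2 fold changes of 5.29 to 5.80 and 7.02 to 7.51, median-over-maximum ratios of 29.9 to 43.3 and 32.6 to 42.5, ratios over the second highest tissue of 38.7 to 56.0 and 82.8 to 107.7, and a miR-132 to miR-212 ratio of 7.63 to 9.98. With library sizes scaled by TMM, the median-over-maximum ratio of cfa-miR-132 was 16.7 and its ratio over the second highest tissue 27.1 (55.1 with the deposited totals), and the rank-sum rule called 41 miRNAs in brain in place of 77. Without the requirement on expression it called 189. The edgeR count of miRNAs higher in brain was 217, and 131 with all other samples weighted equally. Spearman in place of Pearson kept 3 of the 5 most alike miRNAs for each member. The causes were not tested. Over other scalings, filters and DESeq2 the edgeR log2 fold change ran from 5.15 to 6.79 for cfa-miR-132 and from 6.44 to 8.47 for cfa-miR-212, where bone marrow and plasma without reads make the fitted value depend on the prior count. Leaving out bone marrow and plasma, leaving out sciatic nerve in the counts of calls, and the equal weighting in the count of calls were chosen after seeing the data. No paired analysis was possible because the labels carry no dog number. Depth limits cfa-miR-212 most: 3 reads were worth up to 19.0 RPM in the shallowest library.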
